A study of Nicotiana tabacum with 32 samples.

Results

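The 295 array spots described here were strongly lowered in wild-type tobacco cells by both of 2 elicitors of defence, harpin and megaspermin, after 4 h. They were chosen from 32448 spots by a rule on measured values. A spot had to lack a gene symbol or carry one beginning with LOC, to have at least 2 values in each of the 2 wild-type groups, and to have a mean log2 ratio of -1.2 or less in both. The 295 spots lay on 191 of 15360 clones, and 9527 spots had enough values to be considered. No spot whose symbol began otherwise (0) met the same thresholds, so the condition on symbols removed none. The entry of 2 chosen spots, on 1 clone, lists RPS4 after LOC102605939, and 293 spots list no such second symbol.

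RNA came from cells of Nicotiana tabacum cv. Xanthi in liquid suspension culture, grown in MS medium in darkness. They were either wild type or carried an RNA interference construct against SIPK, the salicylic acid-induced protein kinase. The genotype groups set SIPK-silenced cells against wild-type cells on 3 arrays each: harpin at 4 h and 8 h, megaspermin at 4 h and 8 h, an untreated biotic control at 0 h, xanthine oxidase at 4 h and 8 h, and an abiotic control at 0 h. Cells of the xanthine oxidase set, its control included, were first kept with xanthine for 30 min. A further 2 groups of 3 arrays compared wild-type cells 4 h after harpin or megaspermin with wild-type cells at 0 h, and 2 single arrays repeated the harpin response and the abiotic control comparison with the dyes exchanged. Cells of a genotype were pooled and divided into 3 volumes, so every p-value below measures the spread between volumes of 1 pooled culture. Controls were taken at 0 h alone, so treatment and time cannot be told apart. The labels name Phytophthora megasperma as the source of megaspermin on the genotype arrays and Pseudomonas syringae on the wild-type arrays.

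Harpins are proteins that plant-pathogenic bacteria secrete, and megaspermin belongs to the elicitins, small proteins secreted by Phytophthora. Both are known to set off the hypersensitive response in tobacco, a local cell death that comes with wide changes of transcription. SIPK is a mitogen-activated protein kinase, the last kinase of a phosphorylation cascade that elicitors switch on within minutes. Xanthine oxidase acting on xanthine releases superoxide and is used to expose cells to reactive oxygen without an elicitor.

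Each array measured 2 RNA samples together. A value is the log2 ratio of the 2 samples, read here as treated over 0 h cells or as silenced over wild-type cells. A difference of 1 on this scale stands for a 2-fold difference. No label states the direction, which was taken from the query and reference roles of the 2 channels and is not settled. The array titles name wild-type cells before the silenced or 4 h cells, the reverse of the order read here. Were the ratios deposited the other way round on all arrays, every lower below would read higher. The chosen spots would be raised by both elicitors, and 222 of 271 would be higher in silenced cells at 8 h of harpin. The wild-type or the genotype arrays could also be turned alone, and then only the readings that rest on them would change. Ratios hold no level, so neither the abundance of a transcript nor the markers of the cultured cells could be read from them, and fewer cells and less RNA per cell cannot be told apart. SIPK itself was not measured under a kinase symbol, since 0 symbols matched SIPK, MPK or MAPK, so the silencing was not checked. Arrays held values for 8258 to 21105 spots, and replicate arrays of a group correlated at 0.648 to 0.908 across spots.

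Most of the chosen clones were anonymous. No symbol was listed for 230 spots (153 clones). A single symbol, always a numbered potato locus, was listed for 54 spots on 32 clones, covering 20 loci, and several symbols for 11 spots on 6 clones. A symbol was thus listed for 22.0% of the chosen spots, against 11.7% of the 9527 spots measured and 5.58% of all spots. The symbols come from a dated potato annotation without descriptions, the clones are potato sequences read with tobacco RNA, and no function is given to any locus here. Both spots of a clone were chosen for 104 clones and 1 spot for 87. Of the partners of those 87 spots, 24 had too few values and 63 were measured above the threshold, with median log2 ratios of -1.17 for harpin and -1.18 for megaspermin.

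In wild-type cells the chosen spots had a median log2 ratio of -1.51 at 4 h of harpin and -1.56 at 4 h of megaspermin, 2.84-fold and 2.94-fold lower than at 0 h. These values chose the spots and are a description. The medians of all 9527 measured spots were 0.04 for harpin and -0.01 for megaspermin. Array by array, the chosen spots had medians of -1.60, -1.60 and -1.47 with harpin and of -1.74, -1.64 and -1.29 with megaspermin. The third megaspermin array was the least lowered of the 6. Of 1626 single values, 1625 were below 0, and 192 spots were below -1 on every array that measured them. The lowest means were -4.15 with harpin and -3.30 with megaspermin, and 16 spots had means of -2 or less with both. Megaspermin gave the lower mean at 159 of the 295 spots. The last spot inside the threshold, without a symbol, had means of -1.286 for harpin and -1.2005 for megaspermin, and the first outside it, a spot of LOC102595604, had -1.1993 for harpin and -1.2483 for megaspermin. Chosen spots lay in all 12 repeats of the array layout, at 1.46% to 4.47% of the spots measured in each.

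The harpin array with exchanged dyes took no part in the choice, but by its label it holds the same kinds of wild-type RNA. The sources used here do not state whether the same extracts were used, so its values may not be independent of the choice. The exchanged array measured 286 of the chosen spots, all of them below 0, with a median of -1.60 and a highest value of -0.60. At -1.2 or less on that array were 244 spots, 85.3%, against 9.57% of all spots measured in the rule. The exchanged array differed from the mean of the standard harpin arrays by a median of -0.04. A single array gives no test, and megaspermin had no such array.

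**Figure D1:**
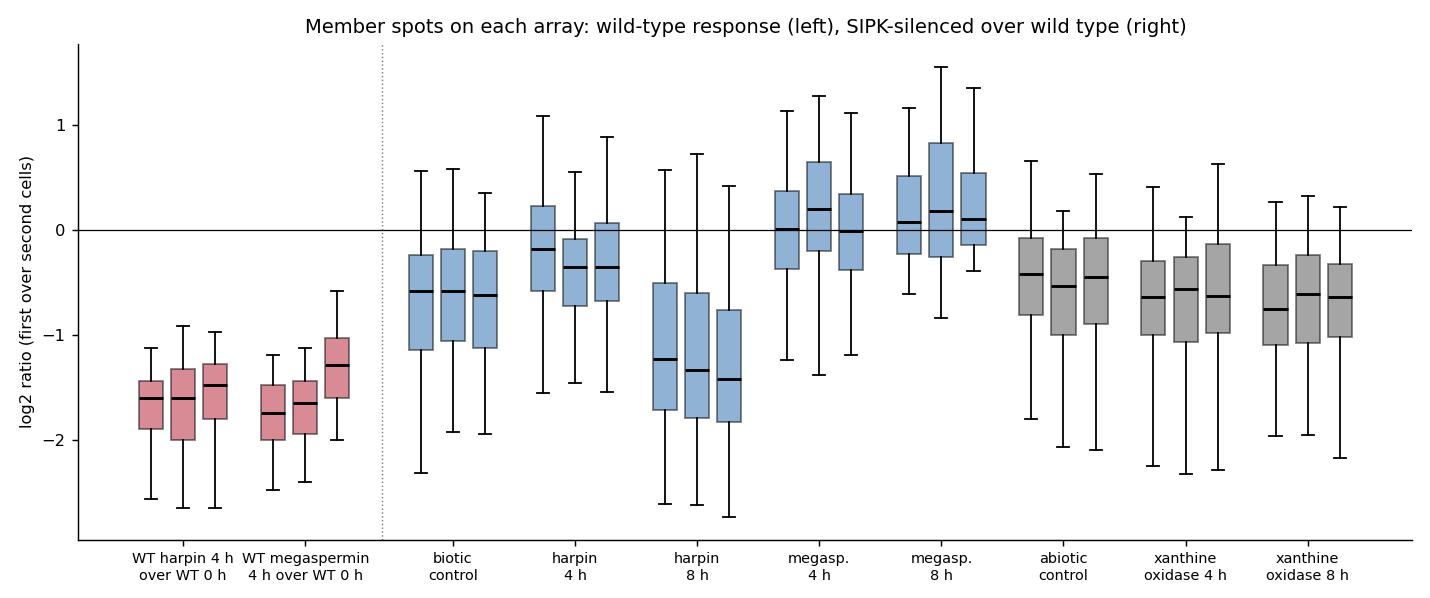
Log2 ratios of the chosen spots on each of 30 arrays, with the 3 arrays of a group side by side; boxes span the quartiles, lines mark medians and whiskers reach the 5th and 95th percentiles. The 6 wild-type arrays on the left chose the spots; on the right, silenced over wild-type cells, the medians of the harpin 8 h arrays lie between -1.42 and -1.23 and those of the megaspermin 8 h arrays between 0.07 and 0.18.

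The same spots were then read in silenced against wild-type cells, where no array had taken part in the choice. Each group was tested for every spot with values on at least 2 of its arrays, with limma over all spots and Benjamini-Hochberg adjustment, at an adjusted p of 0.05. By the labels the biotic control arrays hold the same kind of untreated wild-type RNA that formed the denominator of the choice, and the 4 h elicitor arrays the same kind of treated wild-type RNA. The sources used here do not state whether the same extracts were used, and the part of any sharing in the results was not tested. Noise in shared extracts would run towards lower ratios at the control and higher ratios at 4 h. The 8 h elicitor arrays and the whole xanthine oxidase set share none of this RNA by their labels.

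Before any elicitor, 64.3% of the tested spots in the biotic control and 51.5% in the abiotic control were already lower in silenced cells. In the biotic control 187 of 291 tested spots were lower and 14 higher, with a median log2 ratio of -0.59 (1.51-fold lower), and the background over all 19293 tested spots was 14.0% lower and 13.5% higher. The array medians were -0.58, -0.58 and -0.62. In the abiotic control, which shares no labelled RNA with the choice, 151 of 293 were lower and 10 higher, with a median of -0.44, against a background of 10.4% lower and 10.6% higher. On the single abiotic control array with exchanged dyes the median was -0.11, with 179 of 289 spots below 0. Counted by clone, 122 of 190 clones in the biotic and 99 of 190 in the abiotic control held a spot that was lower, and 10 and 7 held one that was higher. Without the first array of the control concerned, 8 spots were higher in the biotic and 6 in the abiotic control.

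Of the 8 groups, the median difference between genotypes was largest at 8 h of harpin. Of 271 tested spots, 222 were lower in silenced cells and 21 higher, with a median of -1.33 (2.52-fold lower) and quartiles of -1.77 and -0.63. Without the first or without the second harpin 8 h array 11 spots were higher, with 212 and 198 lower. The background was 21.6% lower and 23.0% higher, so the share lower among the chosen spots, 81.9%, lay far above it. The 3 arrays had medians of -1.23, -1.33 and -1.42, and 58.3%, 65.8% and 67.3% of the chosen spots measured on them were at -1 or less. The standard error of a spot's group mean was 0.16, as a median over the chosen spots. At 4 h of harpin the shift was small: 111 of 278 spots were lower and 35 higher, with a median of -0.29 and a background of 16.3% lower and 14.9% higher. The array medians there were -0.18, -0.36 and -0.35, and without the first array 95 spots were lower and 19 higher.

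Megaspermin gave no such loss at the spots that could be tested. On its 3 arrays at 8 h, 286, 219 and 251 of the chosen spots had a value. On those of harpin at 8 h, 252, 269 and 284 had one. Spots with values on fewer than 2 arrays of a group are not counted. At 4 h 49 of 270 spots were lower and 67 higher in silenced cells, with a median of 0.03, against a background of 15.6% lower and 16.3% higher. At 8 h 20 of 262 were lower and 85 higher, with a median of 0.10, against 17.9% lower and 18.6% higher. The share lower at 4 h, 18.1%, was near its background. At 8 h the share lower, 7.63%, was under the background and the share higher, 32.4%, above it. The 3 arrays at 8 h had medians of 0.07, 0.18 and 0.11, and without the second of them 69 of 250 spots were called, 6 lower and 63 higher.

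Under xanthine oxidase most of the chosen spots were lower in silenced cells too. At 4 h 186 of 290 were lower and 9 higher, with a median of -0.60, and at 8 h 203 of 291 were lower and 9 higher, with a median of -0.66. The backgrounds were 17.9% lower and 16.1% higher at 4 h, and 20% lower and 18.0% higher at 8 h. All 6 array medians lay between -0.75 and -0.56. Averaged over the 8 genotype groups, 190 of 250 spots were lower and 50 higher, with a median of -0.46, against a background of 35.7% lower and 36.7% higher.

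**Figure D2:**
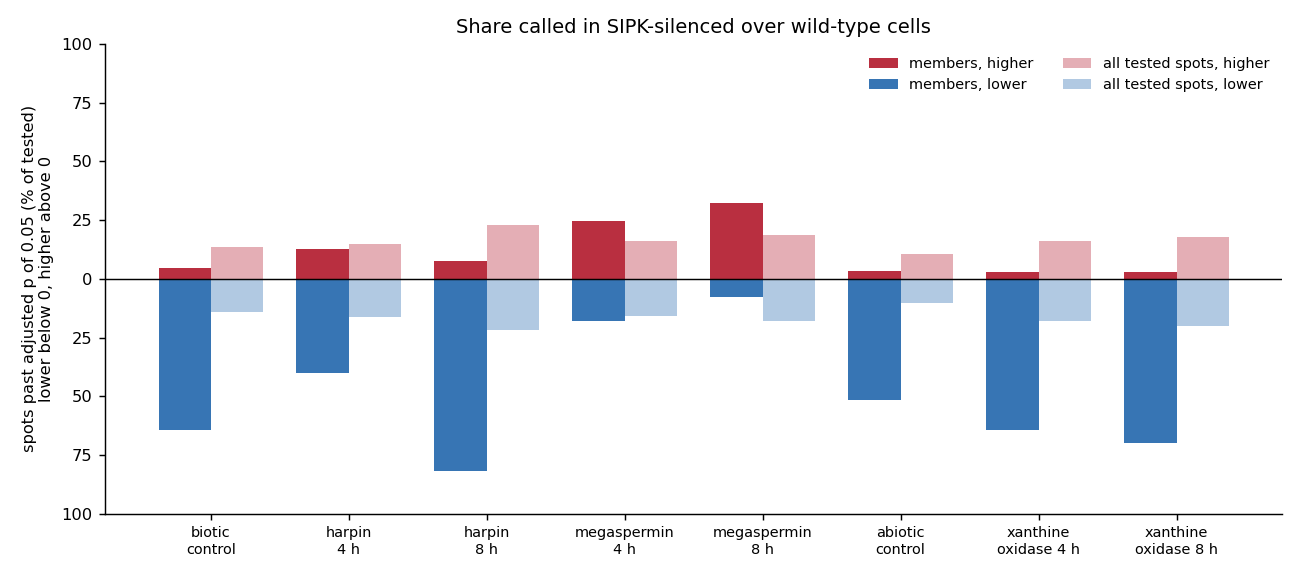
Share of tested spots past an adjusted p of 0.05 in each of 8 comparisons of silenced over wild-type cells, higher above 0 and lower below it, for the chosen spots (dark bars) beside all tested spots (pale bars). The dark lower bar reaches 81.9% at harpin 8 h and 7.63% at megaspermin 8 h.

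The 2 elicitors were set against each other in a direct test, chosen after the data were seen. At 8 h the genotype ratio was lower with harpin than with megaspermin at 230 of 257 tested spots and higher at 1, with a median difference of -1.51 (2.84-fold). The background was 15.5% lower and 12.4% higher. The difference was below 0 at 254 of the 257 spots. Among 201 spots with all 6 values, every harpin array lay below every megaspermin array at 186, while 25.1% of all spots with 6 values had this order. At 4 h the difference was smaller, with 63 of 264 lower and 3 higher and a median of -0.37, against 8.82% lower and 7.86% higher. This 4 h count of 66 was 33 without the second megaspermin array and 32 when these 2 groups were fitted alone, and the lower calls were 41 without the second harpin array.

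For comparison, 334 spots raised by both elicitors in wild-type cells, with means of 1 or more in both groups, were followed in the same way. The same conditions on symbols and on the number of values applied to them. With harpin at 8 h 36 of 330 were lower in silenced cells and 155 higher (background 21.6% and 23.0%). With megaspermin at 8 h 108 of 332 were lower and 88 higher (background 17.9% and 18.6%), with a median of 0.02. In the direct comparison of harpin with megaspermin at 8 h 16 of 329 were lower and 120 higher (background 15.5% and 12.4%). With megaspermin at 4 h 117 of 334 were lower and 41 higher (background 15.6% and 16.3%). The wild-type RNA of the biotic control and of 4 h may be that which chose these spots, and its part was not tested. In the biotic control 68 of 333 were lower and 87 higher (background 14.0% and 13.5%). In the abiotic control 19 of 331 were lower and 131 higher (background 10.4% and 10.6%).

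**Figure D3:**
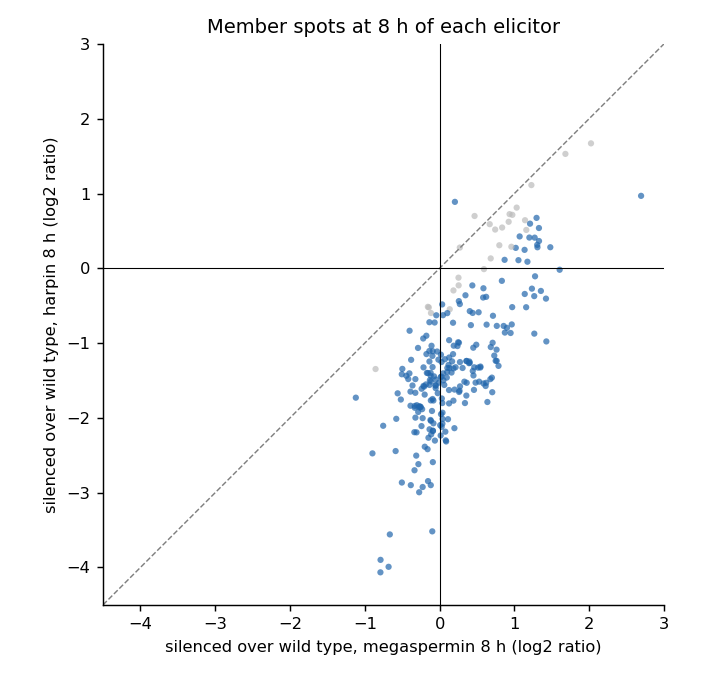
Mean log2 ratio of silenced over wild-type cells at 8 h of harpin (vertical) against 8 h of megaspermin (horizontal), 1 point per chosen spot tested in both. Blue points passed the test of the difference, grey points did not, and the dashed line marks equal values; 254 of the 257 points lie below it.

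The chosen spots were not uniform across genotype groups. Of the 250 spots tested in all 8, 149 (59.6%) were lower in at least 1 group and higher in none, against 35.2% of the 10964 spots tested in all 8. A further 70 (28.0%, against 17.6%) were called both ways in different groups, and 31 (12.4%, against 35.3%) were higher in at least 1 and lower in none. In all 6 groups without megaspermin 71 spots (28.4%) were lower, against 4.88% of all these spots. Lower in all 8 groups were 10 spots (4.0%), against 1.83% of all, and higher in all 8 were 0, against 2.51% of all. At 8 h, 44 of 257 spots (17.1%) were lower with harpin and higher with megaspermin, against 1.70% of all 13854 spots tested in both groups. Lower with both were 20 (7.78%, near the 7.75% of all), and higher with both 20, against 12.3% of all. The 2 spots of a clone behaved alike: of 91 clones with both spots tested at harpin 8 h, 72 had both lower, 5 both higher, 7 had 1 called, 6 none, and 1 had its spots called in opposite directions, with a median difference between spots of 0.10.

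All 6 spots of LOC102590882, on 3 clones, were chosen. Its spot means in wild-type cells ran from -2.03 to -1.65 with harpin and from -2.98 to -2.14 with megaspermin. The spot 153818 of this locus had log2 ratios of -3.77, -3.93 and -4.001 in silenced over wild-type cells at 8 h of harpin, and of -2.60, -2.23 and -2.55 in the biotic control. At 8 h of megaspermin its ratios were -0.96, -1.12 and -0.30. Every harpin 8 h array lay below every biotic control array, and these below every megaspermin 8 h array. The mean at harpin 8 h was -3.90 with a standard error of 0.15 (14.9-fold lower, limma adjusted p 1.1e-16), and the mean at megaspermin 8 h was -0.79 with the same error (1.73-fold lower, adjusted p 0.00015). The difference between the elicitors at 8 h was -3.11 with a standard error of 0.21 (adjusted p 6.0e-11). Over the whole locus all 6 spots were lower in both controls, at 4 h of harpin and at both times of xanthine oxidase, with means from -2.87 to -1.68 over these 5 groups. At harpin 8 h 5 of 5 tested spots were lower, at -3.90 to -2.90, and at megaspermin 8 h 2 of 4 were lower, at -0.79 to -0.12. The change from the biotic control to harpin 8 h passed at 2 of the 5 spots, with changes from -1.44 to -0.36. At the spot 159473 of LOC102590882 it was -0.42 with a standard error of 0.17 (adjusted p 0.10).

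All 4 spots of LOC102592687, on 2 clones, were chosen, and all 4 were lower at harpin 8 h, with means from -2.30 to -2.04. The change from the biotic control to harpin 8 h passed at 0 of the 4 by limma, with changes from -0.65 to -0.41. The spot 134555 of this locus had ratios of -1.76, -2.29 and -2.07 at harpin 8 h, of -1.53, -1.35 and -1.996 in the biotic control, and of -0.25 and 0.01 on the 2 megaspermin 8 h arrays that measured it. The harpin 8 h and control values overlapped, and both groups lay below the megaspermin values. The mean at megaspermin 8 h was -0.12 with a standard error of 0.19 (limma adjusted p 0.67), and 0 of 3 tested spots of the locus passed there. The difference between the elicitors at 8 h was -1.92 with a standard error of 0.25 (adjusted p 2.4e-06).

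LOC102606065 went the other way in part. Of its 11 measured spots 8, on 4 clones, were chosen. The spot 142913 of this locus had ratios of -1.79, -1.89 and -1.60 with harpin and of -1.999, -1.84 and -1.36 with megaspermin in wild-type cells, much like the loci above. In silenced over wild-type cells it had 1.16, 1.48 and 1.35 at megaspermin 8 h, against 0.35, -0.04 and -0.08 in the biotic control. Its 8 h xanthine oxidase ratios were -1.15, -0.62 and -0.81, so the 3 groups did not overlap, with megaspermin above 0 and xanthine oxidase below it. In the abiotic control, which belongs to the xanthine oxidase set, spot 142913 had 0.03, -0.11 and -0.20. The change from that control was -0.76 with a standard error of 0.20 (limma adjusted p 0.10). It passed at 0 of the 8 chosen spots of the locus. The mean was 1.33 with a standard error of 0.14 at megaspermin 8 h (2.51-fold higher, limma adjusted p 1.8e-08), and -0.86 with the same error at xanthine oxidase 8 h (adjusted p 1.1e-05). All 8 chosen spots of the locus were higher at both times of megaspermin, at 0.79 to 1.25 at 4 h and 0.84 to 1.48 at 8 h. At harpin 8 h 4 of the 8 were higher and 0 lower, and at xanthine oxidase 8 h 6 were lower and 0 higher. At xanthine oxidase 4 h 1 was lower and 2 higher.

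LOC102587260 shared this behaviour on 1 clone. Its 2 chosen spots were higher at both times of megaspermin and at 4 h of harpin, at 0.68 to 1.21, and lower at 8 h of xanthine oxidase, at -0.71 and -0.44. The spot 161711 of this locus had 1.06, 1.22 and 1.35 at megaspermin 8 h, against 0.49, 0.23 and 0.27 in the biotic control.

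LOC102577525 was higher in silenced cells everywhere it was called except at harpin 8 h. Both spots of its clone were chosen. The spot 139596 of this locus had -0.39, -0.93 and -1.001 at harpin 8 h and 0.66, 1.05 and 0.87 at megaspermin 8 h. In the biotic control it had 0.55, 0.82 and 0.84. All harpin 8 h values were below 0 and all values of the other 2 groups above it. The mean at harpin 8 h was -0.77 with a standard error of 0.15 (limma adjusted p 7.5e-05), and at megaspermin 4 h it was 1.85 with the same error (3.61-fold higher, adjusted p 6.2e-11). The difference between the elicitors at 8 h was -1.63 with a standard error of 0.21 (adjusted p 6.8e-07).

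The chosen spots of the other loci were mostly lower at harpin 8 h. Of the 20 loci with 1 symbol, 17 had every tested chosen spot lower there. The exceptions were LOC102606065, LOC102587260 and LOC102594243. Counted by spot, 42 of 53 tested chosen spots with 1 symbol were lower and 5 higher. Of all chosen spots 81.9% were lower, against a background of 21.6%, so this is not particular to the loci. At many loci only some measured spots were chosen, as 1 of 6 for LOC102577675. Of the 4 measured spots of LOC102594243 only 1 was chosen, and it had a mean of 0.11 at harpin 8 h and was not called. LOC102590282 had 4 of 5 measured spots chosen, and its spot 148476 had means of -1.33 at harpin 8 h and 0.31 at megaspermin 8 h, the second not called. LOC102595604 had means of -1.53 and 0.62 at these 2 groups at its spot 131616, and LOC102601848 had -1.66 and 0.70 at its spot 145475, all 4 past the threshold. LOC102577552 had -1.51 at harpin 8 h and -0.12, not called, at megaspermin 8 h at its spot 157445. Clones of 1 symbol could disagree in wild-type cells. LOC102598069 had 2 of its 10 measured spots chosen, while other spots of the symbol reached 0.58 with harpin and 0.94 with megaspermin.

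Among the spots without a symbol, the lowest average over the 8 genotype groups belonged to the spot 154967, at -2.71, and to the spot 160457, at -2.18. The spot 154967 had -4.29, -4.09 and -3.82 at harpin 8 h and -0.73, -1.07 and -0.57 at megaspermin 8 h. It was below 0 on every genotype array. The highest averages were 1.04 at the spot 131581 and 0.93 at the spot 142458, and neither kept 1 sign on all arrays. The spot 131581 had 1.34, 2.30 and 1.37 at harpin 8 h and 2.01, 2.11 and 1.96 at megaspermin 8 h, so this transcript was higher in silenced cells with both elicitors at 8 h.

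**Figure D4:**
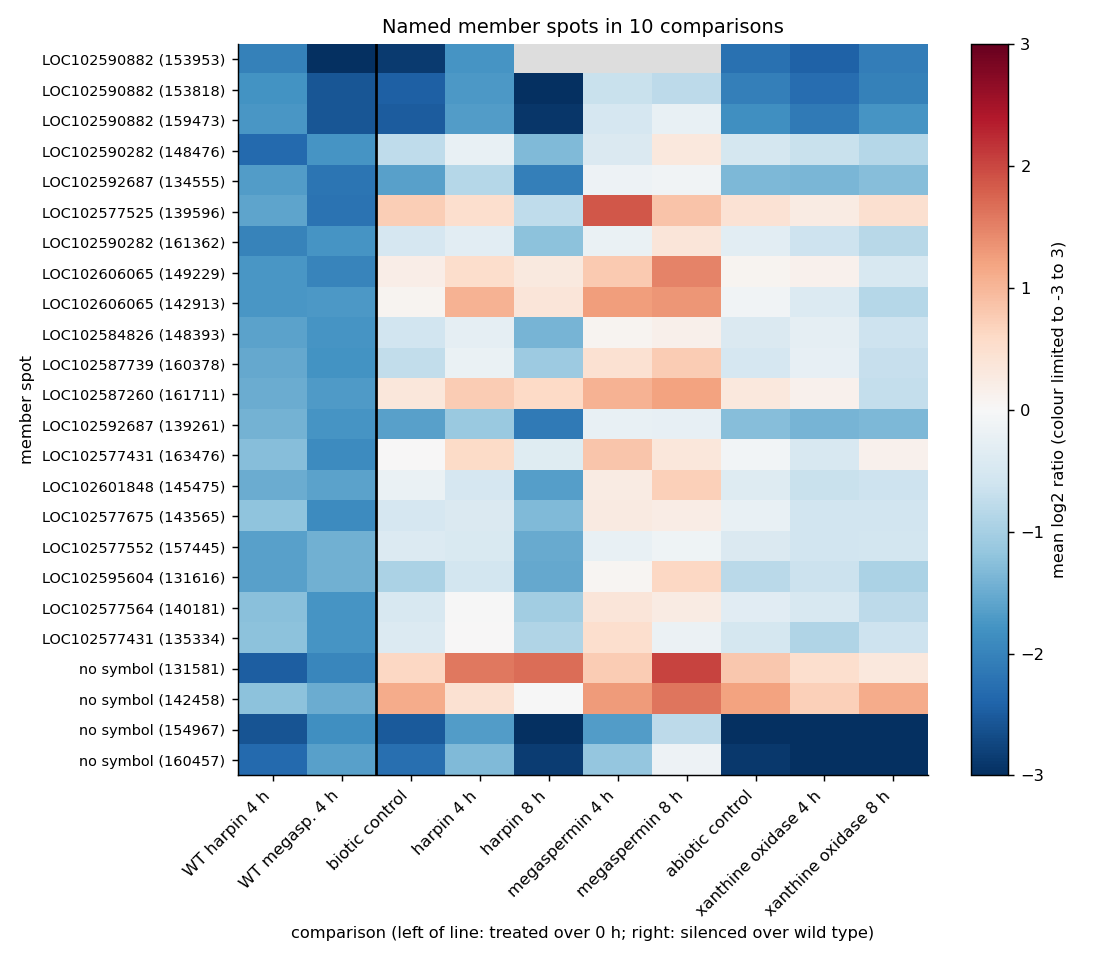
Mean log2 ratio of 24 named spots (rows, with the spot number in brackets) in 10 comparisons: treated over 0 h wild-type cells left of the black line, silenced over wild-type cells right of it. Blue is lower and red higher, colour is limited at -3 and 3, and grey marks groups with too few values; LOC102606065 and LOC102587260 are blue in wild-type cells with both elicitors and red in silenced cells with megaspermin.

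The change of the genotype ratio from the control of the same set was tested next. From the biotic control to 8 h of megaspermin the ratio rose at 166 of 261 spots and fell at 2, with a median change of 0.77, against a background of 13.3% and 11.7%. To 8 h of harpin it fell at 128 of 270 spots and rose at 5, with a median of -0.61, against 9.5% falling and 7.37% rising. At 4 h it rose with both elicitors, at 145 of 269 spots with megaspermin (4 fell, median 0.66, background 8.83% rising and 7.97% falling) and at 54 of 277 with harpin (5 fell, median 0.32, background 5.91% rising and 7.41% falling). All 4 of these changes use the biotic control, whose wild-type RNA may be that of the choice, and shared RNA would move the 4 changes up. The harpin 4 h count of 59 was 36 without the first harpin 4 h array and 38 without the third biotic control array, and 35 spots rose without the first biotic control array.

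From the abiotic control to xanthine oxidase the genotype ratio changed at almost none of the chosen spots, and at almost none of all spots. No array compared xanthine oxidase-treated with control cells of 1 genotype, so a response shared by both genotypes would not show. By limma 0 of 290 spots passed at 4 h, with a median change of -0.14. At an unadjusted p under 0.05 32 were lower and 0 higher, 11.03% against 7.56% of all spots. At 8 h 1 of 291 passed, the LOC102587260 spot 161711, whose genotype ratio fell by 1.02 on the log2 scale. The median change was -0.18. At an unadjusted p under 0.05 29 were lower and 1 higher, 10.3% against 8.50% of all spots. With arrays scaled to a common spread the median changes were 0.01 at 4 h, with 3 lower and 0 higher, and 0.04 at 8 h, with 2 lower and 4 higher. The backgrounds of adjusted calls were 0.0127% in each direction at 4 h, and 0.114% falling and 0.202% rising at 8 h. The count of 1 at 8 h was 0 to 2 when single arrays were left out: it was 0 without any one of the 3 abiotic control arrays or without the first 8 h array, and 2 without the second.

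The 4 h response of silenced cells was not measured on an array and was added up from group means, as the wild-type response plus the genotype ratio at 4 h minus that of the biotic control. It contains the values that chose the spots and carries no test. Its difference from the wild-type response is the change of the genotype ratio from the biotic control, already given above. The counts of less lowered spots below therefore restate the sign of that change and are no separate result. For harpin it had a median of -1.21 over 277 spots, against -1.50 in wild-type cells, and it was below 0 at all 277. At 228 spots silenced cells were less lowered than wild-type cells. For megaspermin the median was -0.89 over 269 spots, against -1.56 in wild-type cells, with 262 below 0 and 257 less lowered than in wild-type cells. At -1.2 or less were 142 spots for harpin and 73 for megaspermin.

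The dye-exchanged array of the abiotic control gave smaller genotype differences at the chosen spots. Its median over 289 spots was -0.11, with 179 below 0, against medians of -0.42, -0.53 and -0.45 on the standard arrays. The chosen spots lay 0.37 higher on the exchanged array than on the standard ones, as a median, and 269 of 289 were higher there. For other spots measured in the rule this shift was 0.05. Of 150 spots called lower in the abiotic control, 135 (90.0%) were below 0 on the exchanged array, with a median of -0.46 there and -0.84 on the standard arrays. Of all spots called lower, 88.8% were below 0 on the exchanged array. A further fit also took in the exchanged arrays, with 1 dye term shared by all groups. The 2 exchanged arrays differed from their standard arrays by medians of -0.04 for wild-type harpin and 0.37 for the abiotic control. A shared term mixes these shifts, and a term for the genotype arrays alone was not fitted. With the shared term the chosen spots were lower and higher at 143 and 14 in the biotic control and at 204 and 19 at harpin 8 h. The counts were 8 and 81 at megaspermin 8 h and 125 and 22 in the abiotic control. With xanthine oxidase they were 141 and 7 at 4 h and 158 and 8 at 8 h. The term reduced the lower calls at harpin 4 h to 66 and at megaspermin 4 h to 25. In this fit a difference between 2 genotype groups without an exchanged array holds no dye term. A change from the abiotic control does depend on it. With the term the median changes from that control were -0.18 at 4 h and -0.23 at 8 h of xanthine oxidase. The counts of harpin minus megaspermin were the same with the term, at 230 and 1 at 8 h. Of the genotype groups, only the abiotic control had an exchanged array.

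**Figure D5:**
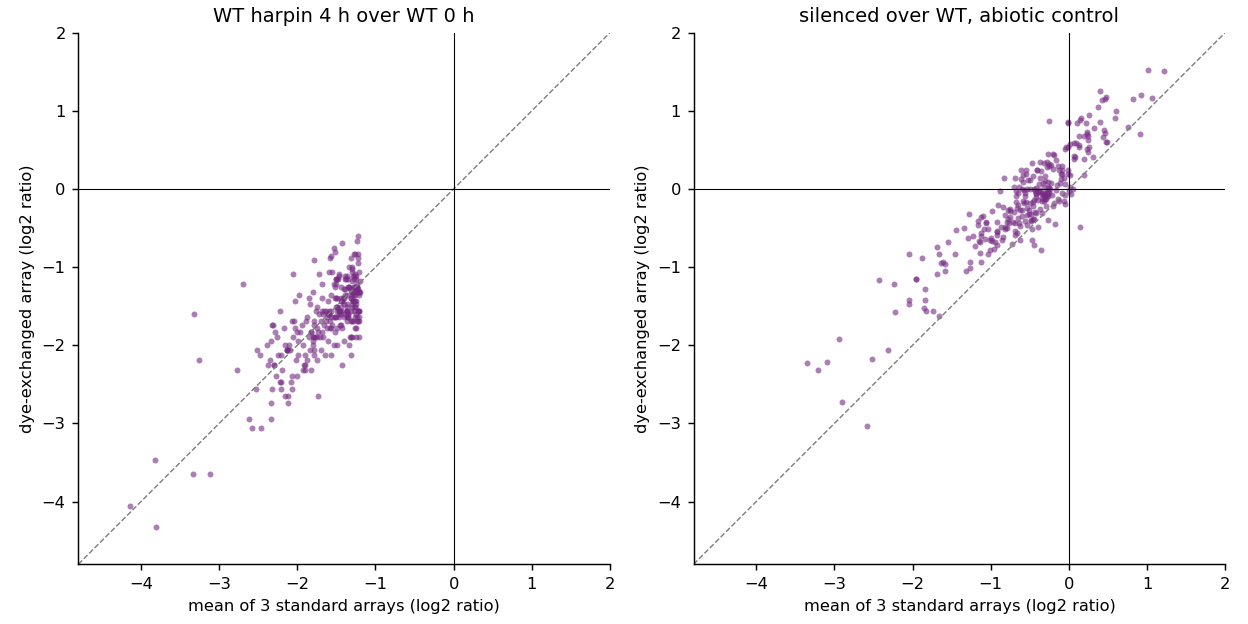
Log2 ratio on the single dye-exchanged array (vertical) against the mean of the 3 standard arrays (horizontal) for each chosen spot, for harpin-treated over 0 h wild-type cells (left) and silenced over wild-type cells in the abiotic control (right); dashed lines mark equal values. The left points scatter about the line with a median difference of -0.04, and 269 of the 289 right points lie above it.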

How the data were processed

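The files hold 1 deposited table of 32448 spots on 32 two-channel arrays of potato cDNA clones, whose values the authors deposited as log ratios. How they were normalized is not given in the sources used here. The deposited values were read as log2: on the 7 wild-type response arrays all values below -1 were log2 of ratios with 2 decimals, and the genotype arrays, without such steps, were taken to share the base. Array medians ran from -0.066 to 0.070. The arrays with exchanged dyes ran the same way as the standard ones (positive correlations), so their sign was already turned.

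Spots at fixed layout offsets were paired as clones, and all 905 named accessions fitted the pairing. The 30 standard arrays were fitted by spot with limma 3.58.1 in R 4.3.3, with a mean for each of 10 groups and moderated variances (prior degrees of freedom 8.90). Testing needed 2 of 3 values per group, with Benjamini-Hochberg adjustment over all spots of a contrast. The code was checked on simulated data. Python 3.11.15 with pandas 2.3.3 and matplotlib 3.10.9 read tables and drew figures. The number of arrays limits the precision.

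Members, lists and tests were chosen with earlier results of these data known. Named were the 20 clones with 1 locus symbol and the lowest mean over both elicitors, the 2 highest and 2 lowest spots without a symbol by the mean of the 8 genotype groups (1 sign on every array preferred), and the spots next to the threshold. Named spots that the text does not describe are in the plot of named spots. Loci described as a whole, LOC102594243 and LOC102598069 were picked after their values were seen. Alternatives were clone means, arrays scaled to 1 spread, 3 values per group, groups fitted alone, a replicate block, a shared dye term and each array left out.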

Additional observations from a re-analysis of the deposited data

Results flagged for a closer look

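The genotype ratio differed between treatments, by limma's test of the difference itself, at many of the chosen spots. Relative to the biotic control, whose wild-type RNA may be that of the choice, it changed with both elicitors. At 8 h of megaspermin 168 of 261 spots changed: 2 fell and 166 rose (background 11.7% and 13.3%). At 4 h of megaspermin 149 of 269 changed: 4 fell and 145 rose (background 7.97% and 8.83%). At 8 h of harpin 133 of 270 changed: 128 fell and 5 rose (background 9.5% and 7.37%). At 4 h of harpin 59 of 277 changed: 5 fell and 54 rose (background 7.41% and 5.91%). Relative to the abiotic control the genotype ratio changed at 1 of 291 spots with xanthine oxidase at 8 h, where 0.114% of all spots fell and 0.202% rose. That count was 0 with clone means or with its groups fitted alone. Between harpin and megaspermin, in a comparison added after the data were seen, the genotype ratio differed at 231 of 257 spots at 8 h. There 230 were lower with harpin and 1 higher (background 15.5% and 12.4%). At 4 h it differed at 66 of 264, with 63 lower and 3 higher (background 8.82% and 7.86%).

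Of the named spots, 4 were called in opposite directions with harpin and megaspermin at 8 h. They are examples of a pattern not particular to named spots. It held at 44 of 257 chosen spots (17.1%), against 1.70% of all spots tested in both groups. LOC102601848 (spot 145475) had a difference of -2.36, from means of -1.66 with harpin and 0.70 with megaspermin. LOC102595604 (spot 131616) had a difference of -2.15, from -1.53 with harpin and 0.62 with megaspermin. LOC102587739 (spot 160378) had a difference of -1.85, from -1.09 with harpin and 0.76 with megaspermin. LOC102577525 (spot 139596) had a difference of -1.63, from -0.77 with harpin and 0.86 with megaspermin.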

How the results depend on the processing

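With arrays scaled to a common spread, the changes from control passed at 92 spots for harpin 4 h, 81 for harpin 8 h, 3 for xanthine oxidase 4 h and 6 for xanthine oxidase 8 h. The last one turned direction, with 2 lower and 4 higher (median 0.04) after scaling, against 1 lower and 0 higher (median -0.18) without it, and the median of the xanthine oxidase 4 h change was 0.01 after scaling, against -0.14. The count at 8 h was 0 with clone means, 0 with its groups fitted alone and 2 with the dye term. The 4 h difference between the elicitors passed at 32 spots with its groups fitted alone. The rule gave 520 spots at a threshold of -1.0, 145 at -1.4 and 88 after scaling. The causes were not tested. With the dye term the share higher among called spots was 72.5% at megaspermin 4 h (57.8% without it) and 91.0% at megaspermin 8 h (81.0% without it). With arrays left out singly, the spots called lower or higher numbered 162 to 173 in the biotic control, 104 to 124 at harpin 4 h, 208 to 223 at harpin 8 h, 89 to 107 at megaspermin 4 h, 69 (without the second array) to 100 at megaspermin 8 h, 131 to 132 in the abiotic control, 161 to 178 and 174 to 201 at 4 h and 8 h of xanthine oxidase, and 196 to 239 for the mean of the 8 groups. For the changes they were 36 to 49 (harpin 4 h; 38 without the third biotic control array and 36 without the first harpin array), 109 to 121 (harpin 8 h), 106 to 136 and 122 to 141 (megaspermin 4 h and 8 h), 0 to 0 and 0 to 2 (xanthine oxidase 4 h and 8 h). For harpin minus megaspermin they were 33 (without the second megaspermin array) to 73 at 4 h and 186 to 226 at 8 h. The rule chose 195 (without the second wild-type megaspermin array) to 318 spots. Deviations of same-numbered arrays of different groups correlated at -0.522 to 0.454, over 0.1 in 30 of 135 pairs. Those of arrays with other numbers correlated at -0.518 to 0.479, over 0.1 in 69 of 270 pairs. By this measure replicate numbers showed no pairing of the arrays, which does not settle whether the volumes were paired. With a replicate block 240 spots passed at harpin 8 h and 231 in the 8 h difference, and the block moved no count by over 1.5 times. Of the named spots, 5 missed the threshold for the mean of the 8 groups with the dye term (LOC102590282 at 148476, LOC102587739, LOC102577431 at 163476, LOC102601848 and LOC102577564), and LOC102577431 at 163476 also with clone means and with scaling.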
